A study of Mus musculus with 14 samples.

Results

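The genes described here drive the cell through DNA replication and division: the cyclins and their kinase, the factors that license and fire replication origins, the enzymes of the replication fork and of nucleotide supply, and the kinases, motors and chromosome proteins of mitosis. They were chosen as a list of 41 gene symbols, and where a gene had several probe sets, the one brightest on average over all arrays stood for it. Of the 41, 40 had a probe set that the platform annotation pairs with that symbol alone. The signal of Ccnb1 was not analysed here. Mean signal over the 14 arrays passed the filter of 389.8 for 35 of the 40, out of 12944 genes that passed it. The origin-licensing factor Cdc6, the thymidylate synthase Tyms, the checkpoint kinases Bub1 and Bub1b and the cytokinesis motor Kif20a lay below it.

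Subcutaneous white adipose tissue (scWAT) was taken from male C57BL/6 mice, 12 weeks old per the labels. The exercised group lived with a running wheel in the cage for 11 days, and the sedentary group, also labelled 11 days, was the control. Total RNA of the frozen tissue was hybridised to Affymetrix arrays, 7 exercised and 7 sedentary. Both groups carry the same strain, sex and age label, and no genetic change or drug is named for either. The labels do not say whether arrays came from separate mice, so the p-values rest on the variation from array to array alone, which may be technical.

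A dividing cell commits to a new cycle in G1 through D-type and E-type cyclins, which lift the retinoblastoma proteins off the E2F transcription factors. E2F then turns on genes for the replication machinery, among them the MCM helicase subunits, and later the B-Myb and FoxM1 complexes turn on mitotic genes. Mature adipocytes rarely divide, and dividing cells in adipose tissue are usually progenitors, endothelial cells and immune cells. Subcutaneous fat pads can also hold a lymph node, in which lymphocytes divide.

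Promoter sequences are shown for 5 members because they carry matches to the letters of elements linked to this timing. Ccnb2, Cdk1 and Mki67 stand for the mitotic programme, and Mcm5 and Mcm6 for the replication programme. Each sequence is the 250 bases before the gene's start in RefSeq (mouse build GRCm38.p6), written 5′ to 3′ on the gene's own strand. Capitals mark matches, on either strand, to an E2F site (TTTGGCGC, TTTCGCGC, TTTCCCGC or TTTGCCGC), a cell cycle homology region (CHR) or a CCAAT box. The CHR was searched as the letters TTTGAA and, as an alternative form of the same element, the letters TTCGAA. The box searched is the 5 letters of its name, and on the opposite strand it appears as its reverse complement. In these 5 windows the motifs overlap only where E2F matches on opposite strands do.
Ccnb2 (B-type cyclin of mitosis; chr9:70421555-70421804, minus strand): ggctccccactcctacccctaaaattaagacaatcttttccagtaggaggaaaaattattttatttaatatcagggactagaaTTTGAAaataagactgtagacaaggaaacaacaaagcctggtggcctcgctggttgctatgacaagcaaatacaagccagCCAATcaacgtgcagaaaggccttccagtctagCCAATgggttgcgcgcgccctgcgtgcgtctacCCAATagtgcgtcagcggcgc
Cdk1 (the kinase it partners; chr10:69352913-69353162, minus strand): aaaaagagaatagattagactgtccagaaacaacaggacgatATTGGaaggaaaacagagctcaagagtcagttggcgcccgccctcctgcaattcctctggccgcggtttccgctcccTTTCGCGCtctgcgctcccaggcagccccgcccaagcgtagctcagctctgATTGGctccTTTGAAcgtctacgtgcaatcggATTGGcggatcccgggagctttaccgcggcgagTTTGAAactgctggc
Mki67 (chromosome surface protein of dividing cells; chr7:135716380-135716629, minus strand): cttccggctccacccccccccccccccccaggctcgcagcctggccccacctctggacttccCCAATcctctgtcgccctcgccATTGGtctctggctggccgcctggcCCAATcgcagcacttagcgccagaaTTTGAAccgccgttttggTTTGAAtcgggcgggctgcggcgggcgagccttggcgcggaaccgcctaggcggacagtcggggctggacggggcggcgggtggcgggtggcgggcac
Mcm5 (subunit of the replicative helicase; chr8:75109259-75109508, plus strand): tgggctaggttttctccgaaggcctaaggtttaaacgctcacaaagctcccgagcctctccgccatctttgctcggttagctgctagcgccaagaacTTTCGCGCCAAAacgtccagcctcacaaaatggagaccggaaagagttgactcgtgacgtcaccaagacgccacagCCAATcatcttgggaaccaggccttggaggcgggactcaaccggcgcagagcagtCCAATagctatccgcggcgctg
Mcm6 (subunit of the same helicase; chr1:128359706-128359955, minus strand): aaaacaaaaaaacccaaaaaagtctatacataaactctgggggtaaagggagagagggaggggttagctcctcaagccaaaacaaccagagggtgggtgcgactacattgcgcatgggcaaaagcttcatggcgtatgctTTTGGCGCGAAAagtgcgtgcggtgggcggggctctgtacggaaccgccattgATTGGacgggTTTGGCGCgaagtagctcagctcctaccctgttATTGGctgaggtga

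The Ccnb2 window held 3 CCAAT boxes and a CHR match at base -167, and a further CHR match began at base 5, beyond the printed stretch. In Cdk1, 3 CCAAT boxes, CHR matches at bases -71 and -15 and an E2F site at base -131 stood together. Mki67 had CHR matches at bases -116 and -98 and no match to the E2F letters in its window. Mcm5 had E2F matches on opposite strands at bases -153 and -149, which overlap, and Mcm6 had such an overlapping set at bases -110 and -106 and another E2F match at base -47. Neither had a CHR match.

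Promoters of 33 of the 41 listed genes were found in the RefSeq table, searched from 250 bases before to 50 bases after the start. A CHR and a CCAAT box stood together in 18 of the 33 (54.5%), against 8.61% of the 27025 genes with a promoter in that table. An E2F match was found in 6 of the 33 (18.2%), against 2.6% of all genes. These were Cdk1, Cdc6, Mcm3, Mcm5, Mcm6 and Mcm7. A CCAAT box was found in 27 (81.8%), against 41.1% of all genes, and a CHR match in 18 (54.5%), against 21.7%. A match describes these letters only and was not tested as a site of binding.

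Signals were MAS5 intensities on a linear scale, scaled alike on every array. Arrays correlated with each other at r of 0.884 to 0.954 over all probe sets (log2 signal), and array medians ran from 531.3 to 617.4. The tissue label was borne out by the mature adipocyte markers, 6 of 7 measured, which summed to 187500 to 286500 in sedentary and 241600 to 312100 in exercised arrays. Skeletal muscle genes, 6 measured, were uneven between arrays, with sums of 2032 to 167500 in sedentary and 2830 to 365400 in exercised arrays. Their gene Acta1 had a signal of 42833 on sedentary replicate 3 and of 55770 to 66197 on exercised replicates 2, 3, 6 and 7. It was 961 to 25989 on the other arrays. Sedentary replicate 5 stood apart in other markers. It had the lowest adipocyte sum and, among all arrays, the highest B lymphocyte sum (101100 over 9 genes, next highest 56130) and neutrophil sum (62460 over 3 genes, next highest 14140). Its Gapdh 3′ over 5′ log2 ratio, a sign of RNA integrity, was -0.42, within the sedentary mean of -0.45 ± 0.067 (SD, n = 7), while the exercised mean was -0.40 ± 0.055 (SD, n = 7). The differences of the members are therefore given with and without that array.

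No member passed the test between exercised and sedentary tissue, and the weight of the list lay on the lower side. With limma and Benjamini-Hochberg adjustment over all 12944 genes, 0 of 35 members were lower at an adjusted p under 0.05, where 1.53% of all genes were, and 0 were higher, where 4% were. At an unadjusted p under 0.05, 9 members were lower, against 10.5% of all genes, and 0 were higher, against 11.3%. Exercised minus sedentary differences were negative for 29 of 35 members, against 55% of all genes. Their median was -0.35 on the log2 scale, beside -0.03 over all genes. In no member did the groups' signals fail to overlap, which 0.734% of all genes did on the lower side and 1.95% on the higher side. In bulk tissue, fewer dividing cells and less of these RNAs per cell cannot be told apart.

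Leaving out sedentary replicate 5, the same comparison gave 1 of 35 members lower, the replication clamp Pcna, where 1.71% of all genes were lower, and 0 higher, where 3.84% were. At an unadjusted p under 0.05 the counts became 4 lower and 2 higher, where 10.2% of all genes lay on each side. Differences were then negative for 27 of 35 members, against 57% of all genes, and their median was -0.17, beside -0.035 over all genes. No member's groups were apart, against 0.966% of all genes on the lower and 1.96% on the higher side.

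**Figure D1:**
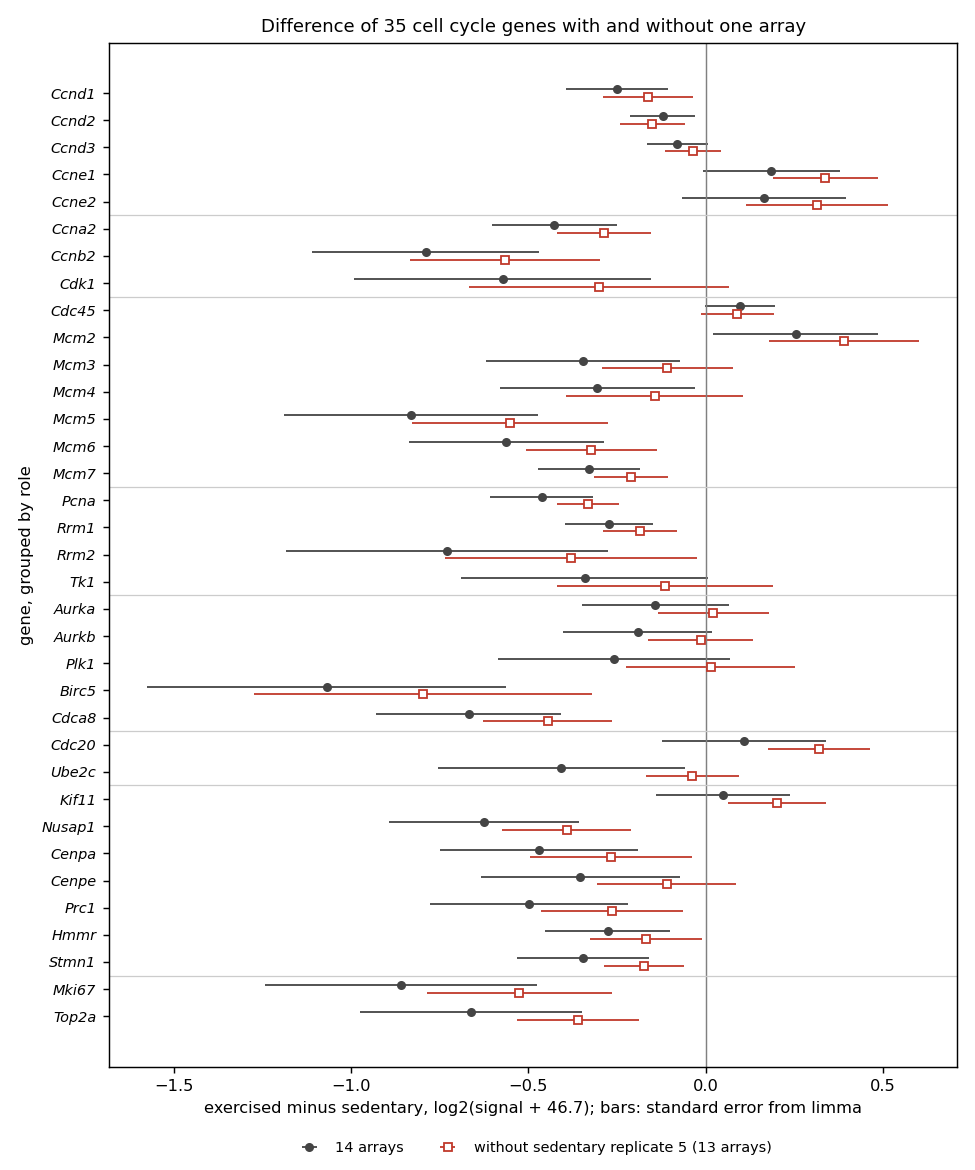
Exercised minus sedentary difference of each of the 35 members on the log2(signal + 46.7) scale, grouped by role, with its standard error; filled points use all 14 arrays and open squares leave out sedentary replicate 5. Most points lie left of 0, with a median of -0.35 with all arrays and -0.17 without that array.

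One array of each group lay at the ends of many members' ranges. Sedentary replicate 5 had the highest signal of all 14 arrays in 32 of 35 members, where it did so in 23.1% of all genes. The exceptions were the G1 cyclin Ccnd2, with rank 11 from the top, the replication initiation factor Cdc45, with rank 12, and the helicase subunit Mcm2, with rank 3. At the other end, exercised replicate 5 was the lowest of the 14 arrays in 15 of 35 members, against 14% of all genes, and in all 15 of these sedentary replicate 5 was the highest. In these 15 members, 1 array of each group set both ends of the range.

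**Figure D2:**
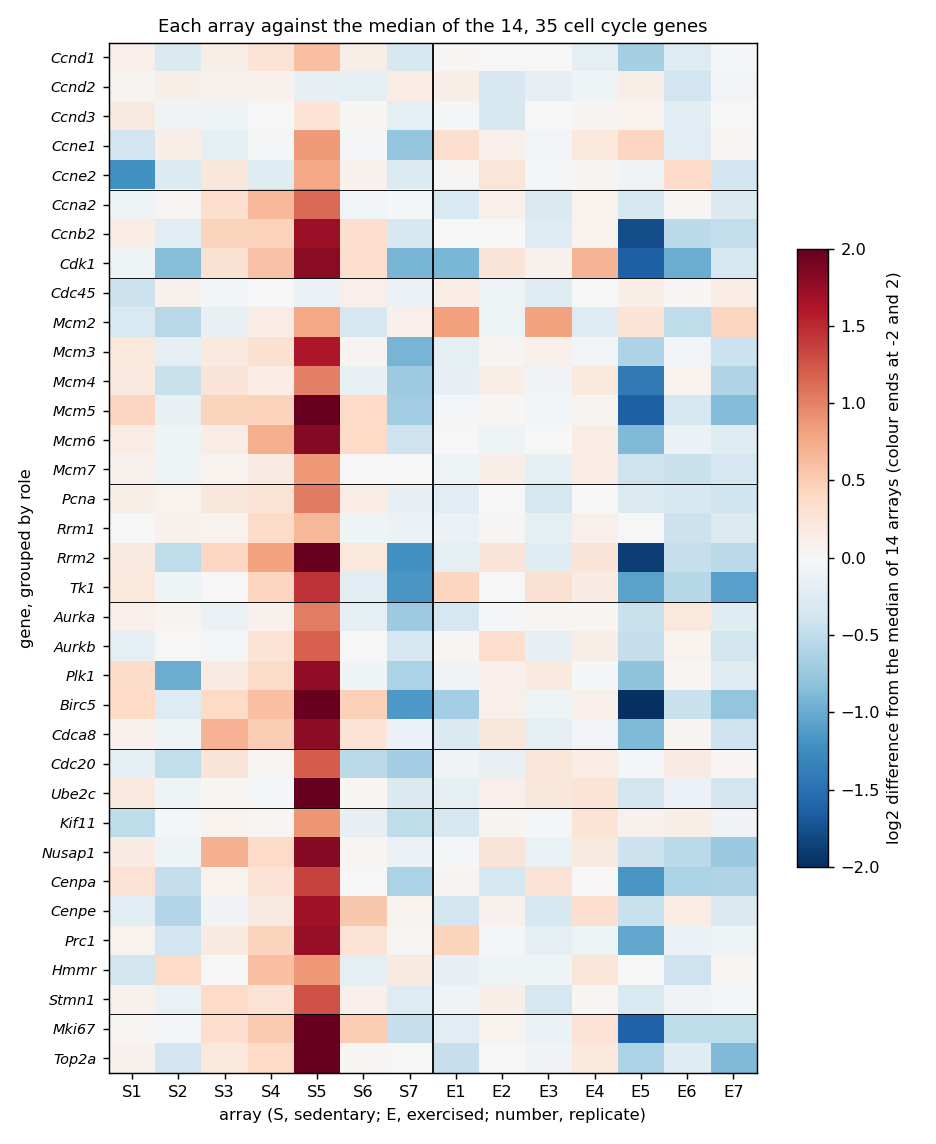
Log2 deviation of each of the 35 members (lines, by role) from its own median over the 14 arrays (columns), with colours ending at -2 and 2. The column of sedentary replicate 5 is high in 32 of 35 members, and that of exercised replicate 5 is the lowest in 15.

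G1 cyclins, the first step of the cycle, had the median difference nearest to 0 of the 8 roles with all arrays. It was -0.08 over 5 genes, and -0.036 without sedentary replicate 5. Ccnd1, the D-type cyclin that links growth factor signals to the cycle, had a signal of 4129, 5609 and 7882 (lowest, median and highest) in sedentary arrays and 3239, 5022 and 5241 in exercised arrays. Most arrays of both groups shared one range, with sedentary replicate 5 above it and exercised replicate 5 below it. The difference of Ccnd1 was -0.25 (SE 0.143, adjusted p = 0.322), and -0.16 without sedentary replicate 5 (adjusted p = 0.509).

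Ccnd2, another D-type cyclin, had signals of 10608, 12888 and 13572 in sedentary and 9374, 11461 and 13396 in exercised arrays. It was among the members in which sedentary replicate 5 was not high, and its difference was -0.12 (SE 0.092, adjusted p = 0.467), and -0.15 without that array (adjusted p = 0.381). Ccnd3 differed by -0.08 (adjusted p = 0.614), and by -0.036 without it. The E-type cyclins Ccne1 and Ccne2, which act at entry into S phase, had positive differences of 0.19 and 0.16 (adjusted p = 0.603 and 0.708), and of 0.34 and 0.31 without sedentary replicate 5. A weaker probe set of Ccne1 had a difference of -0.17, so the sign of that gene rested on the probe set.

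S-phase and mitotic cyclins and their kinase had a median difference of -0.57 over 3 genes, and -0.30 without sedentary replicate 5. Ccnb2, a B-type cyclin that activates Cdk1 in mitosis, had signals of 472.5, 771.1 and 2072 in sedentary and 141.9, 497.8 and 631.7 in exercised arrays. The exercised arrays lay in the lower part of the range, with exercised replicate 5 far below the rest, and the groups overlapped. The difference of Ccnb2 was -0.79 (SE 0.320, adjusted p = 0.166), and -0.57 without sedentary replicate 5 (adjusted p = 0.253).

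Ccna2, the cyclin of S phase and G2, had signals of 1231, 1334 and 2922 in sedentary and 1040, 1068 and 1404 in exercised arrays. The sedentary arrays reached higher and the lower ends were close. Its difference was -0.43 (SE 0.177, adjusted p = 0.174), and -0.29 without sedentary replicate 5 (adjusted p = 0.244). The second probe set of Ccna2 gave -0.71.

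Cdk1, the kinase that starts mitosis, spread more within each group than between them. Its signals were 352.9, 895.7 and 2612 in sedentary and 200.5, 565.7 and 1171 in exercised arrays. Sedentary replicate 5 was 2.37 times the next sedentary array, and the lowest sedentary array, replicate 7, lay below the exercised median. The difference of Cdk1 was -0.57 (SE 0.420, adjusted p = 0.450), and -0.30 without sedentary replicate 5 (adjusted p = 0.685).

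Among genes of origin licensing and firing, the median difference was -0.33 over 7 genes, and -0.14 without sedentary replicate 5. The MCM proteins form the ring-shaped helicase that is loaded at origins in G1 and unwinds DNA in S phase. Mcm5 had signals of 1476, 3266 and 10541 in sedentary and 748.3, 2312 and 2498 in exercised arrays. The exercised arrays were below the sedentary median throughout, but sedentary replicates 2 and 7 lay among them, and sedentary replicate 5 was 3.18 times the next sedentary array. The difference of Mcm5 was -0.83 (SE 0.359, adjusted p = 0.191), and -0.55 without sedentary replicate 5 (adjusted p = 0.281).

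Mcm7 had signals of 4277, 4844 and 8458 in sedentary and 3352, 4008 and 5085 in exercised arrays, so the ranges of the groups overlapped around the sedentary median. Its difference was -0.33 (SE 0.145, adjusted p = 0.198), and -0.21 without sedentary replicate 5 (adjusted p = 0.272). A second, weaker probe set of Mcm7 had a difference of -0.55 and passed when all probe sets were tested one by one (adjusted p = 0.0298), which the chosen one did not (adjusted p = 0.222). The other subunits Mcm3, Mcm4 and Mcm6 had differences of -0.35, -0.30 and -0.56, with adjusted p of 0.483, 0.540 and 0.247. Leaving out sedentary replicate 5 brought them to -0.11, -0.14 and -0.32.

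Mcm2 and Cdc45 did not share this sign. Mcm2 had a positive difference of 0.25 (adjusted p = 0.550), and 0.39 without sedentary replicate 5, on its brighter probe set and -0.61 on its weaker one, so no direction can be given for that subunit. Cdc45, which joins the helicase when an origin fires, differed by 0.10 (adjusted p = 0.588), and by 0.09 without that array. Cdc6, below the filter, had sedentary signals of 43.6 to 707.7 and exercised signals of 35.5 to 288.5.

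Pcna, the sliding clamp that holds DNA polymerase on its template, came closest to the threshold. Its signals were 7846, 9742 and 18068 in sedentary and 6700, 7260 and 8904 in exercised arrays. The exercised arrays all lay below the sedentary median, and sedentary replicate 7 was the only sedentary array inside the exercised range. The difference of Pcna was -0.46 (SE 0.144, adjusted p = 0.0747 with all 14 arrays). Without sedentary replicate 5 it was smaller, -0.33, with a smaller error (SE 0.088), and passed (adjusted p = 0.0400). Leaving out sedentary replicate 7 instead gave -0.53 and also passed (adjusted p = 0.0383), and with weights for array quality Pcna passed at -0.37 (adjusted p = 0.0217). With the level of Cd68 in the fit it was -0.16 (adjusted p = 0.610).

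Pcna belongs with the replication fork and nucleotide supply, where the median difference was -0.40 over 4 genes and -0.26 without sedentary replicate 5. Rrm1, the large subunit of ribonucleotide reductase, had signals of 1466, 1690 and 2552 in sedentary and 1179, 1473 and 1718 in exercised arrays. The exercised arrays reached just past the sedentary median, and the difference was -0.27 (SE 0.124, adjusted p = 0.215), and -0.19 without sedentary replicate 5 (adjusted p = 0.340). Its small subunit Rrm2, which is made in S phase, ranged far more widely, from 557.4 to 7501 in sedentary and from 333.7 to 1629 in exercised arrays. Sedentary replicate 5 exceeded the next sedentary array in Rrm2 3.13 times. The difference of Rrm2 was -0.73 (SE 0.455, adjusted p = 0.372), and -0.38 without that array (adjusted p = 0.593). The thymidine kinase Tk1 differed by -0.34 (adjusted p = 0.596), and by -0.12 without it. Tyms, below the filter, had signals of 117.1 to 254.8 in sedentary and 93.2 to 314.6 in exercised arrays.

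**Figure D3:**
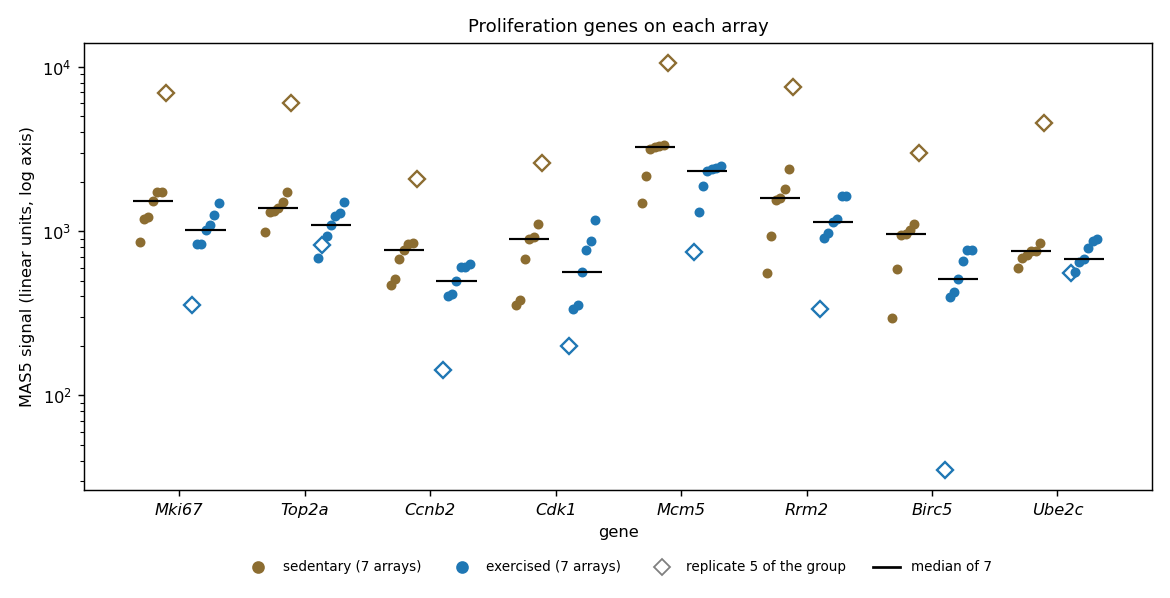
Signal of Mki67, Top2a, Ccnb2, Cdk1, Mcm5, Rrm2, Birc5 and Ube2c on each of the 7 sedentary and 7 exercised arrays (log axis), with lines at the group medians and replicate 5 of each group as diamonds. Sedentary replicate 5 is the highest point in every panel and exercised replicate 5 the lowest in all but Top2a, while the remaining arrays of the groups overlap.

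Mitotic kinases and the chromosomal passenger complex had a median difference of -0.26 over 5 genes, which was -0.014 without sedentary replicate 5. Birc5 (survivin), which targets the passenger complex to centromeres, had the most negative difference of all members. Its signals were 297.5, 958.3 and 2967 in sedentary and 35.3, 508.8 and 770.8 in exercised arrays. Exercised replicate 5 lay more than an order of magnitude below the exercised median. Its difference was -1.07 (SE 0.506, adjusted p = 0.232), with the largest standard error of the 35 members, and -0.80 without sedentary replicate 5 (adjusted p = 0.374).

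Cdca8 (borealin), of the same complex, had signals of 660.9, 876.3 and 2598 in sedentary and 368.8, 633.5 and 846.2 in exercised arrays. The upper exercised arrays reached into the sedentary range, and the difference was -0.67 (SE 0.261, adjusted p = 0.153), and -0.45 without sedentary replicate 5 (adjusted p = 0.182). The kinase of the complex, Aurkb, differed by -0.19 (adjusted p = 0.621), the centrosomal kinase Aurka by -0.14 (adjusted p = 0.717) and Plk1, which acts at several steps of mitosis, by -0.26 (adjusted p = 0.673). With sedentary replicate 5 left out these were -0.014, 0.022 and 0.014. Bub1 and Bub1b, below the filter, had signals of 19.8 to 1222 and 110.8 to 1166 in sedentary arrays, and of 19.3 to 283.4 and 72.8 to 366.4 in exercised arrays.

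The genes of the anaphase-promoting complex, which tags cyclins and securin for destruction, had differences of opposite sign. Ube2c, its ubiquitin-conjugating enzyme, had signals of 593.6, 757.2 and 4578 in sedentary and 556.5, 678.2 and 895.9 in exercised arrays. Apart from sedentary replicate 5, which was 5.38 times the next sedentary array, the groups covered nearly the same range. The difference of Ube2c was -0.41 (SE 0.349, adjusted p = 0.521), and -0.038 without that array (adjusted p = 0.896).

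Cdc20, the activator of the complex in mitosis, had signals of 844.1, 1210 and 3275 in sedentary and 1251, 1438 and 1654 in exercised arrays. All exercised arrays lay above the sedentary median. The difference of Cdc20 was 0.11 (SE 0.231, adjusted p = 0.814), and 0.32 without sedentary replicate 5 (adjusted p = 0.223). A second probe set of Cdc20, of similar brightness, had a difference of -0.66, and the mean of its probe sets gave -0.28, so no direction can be given for Cdc20.

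Spindle, kinetochore and microtubule genes had a median difference of -0.35 over 7 genes, and -0.17 without sedentary replicate 5. Nusap1, which bundles spindle microtubules, had signals of 764.5, 935.3 and 3058 in sedentary and 478.9, 753.7 and 995.1 in exercised arrays. The groups overlapped around the sedentary median, with sedentary replicate 5 well above all others. Its difference was -0.63 (SE 0.268, adjusted p = 0.187), and -0.39 without that array (adjusted p = 0.242). Stmn1 (stathmin), which destabilises microtubules, had signals of 3722, 4821 and 10913 in sedentary and 3486, 4267 and 4916 in exercised arrays. Without sedentary replicate 5, which was 1.86 times the next, the ranges of Stmn1 nearly coincided at their lower ends. Its difference was -0.35 (SE 0.186, adjusted p = 0.290), and -0.17 without that array (adjusted p = 0.410).

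The centromere histone Cenpa differed by -0.47, the kinetochore motor Cenpe by -0.35, the midzone bundler Prc1 by -0.50 and the hyaluronan receptor and spindle protein Hmmr by -0.28, with adjusted p from 0.313 to 0.489. With sedentary replicate 5 left out, the same differences were -0.27, -0.11, -0.26 and -0.17. Other probe sets disagreed in size or sign: a weaker one of Cenpa gave 0.17, and a second one of Hmmr gave -0.74. The spindle motor Kif11 differed by 0.05 (adjusted p = 0.903), and by 0.20 without sedentary replicate 5. A second probe set of Kif11, of similar brightness, gave -0.21 and one below the filter gave -0.34, so no direction can be given for Kif11. Kif20a, below the filter, had signals of 107.5 to 793.2 in sedentary and 144 to 277.3 in exercised arrays.

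Mki67 and Top2a, the chromosome proteins, had a median difference of -0.76, and -0.44 without sedentary replicate 5. Mki67 (Ki-67), which coats mitotic chromosomes and is the usual marker of dividing cells, had signals of 860.2, 1517 and 6914 in sedentary and 357, 1012 and 1475 in exercised arrays. Sedentary replicate 5 was 3.99 times the next sedentary array, exercised replicate 5 was the lowest of all, and the 12 others shared one range. The difference of Mki67 was -0.86 (SE 0.384, adjusted p = 0.205), and -0.53 without sedentary replicate 5 (adjusted p = 0.275).

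Top2a, the topoisomerase that untangles replicated chromosomes, had signals of 986.8, 1378 and 6052 in sedentary and 683.3, 1091 and 1503 in exercised arrays. The group medians were close to each other, and sedentary replicate 5 was 3.50 times the next sedentary array. The difference of Top2a was -0.66 (SE 0.313, adjusted p = 0.231), and -0.36 without sedentary replicate 5 (adjusted p = 0.253). A weaker probe set of Top2a that passed the filter gave -0.14.

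The members varied together across arrays. Each member's log2 signal was correlated with the mean of the others, as a description over arrays that share their whole-tissue makeup. The median r was 0.89 over 14 arrays, with a range of -0.3 to 0.97, and was over 0.5 for 29 of 35 members. Without sedentary replicate 5 it was 0.74, with a range of -0.31 to 0.98, and over 0.5 for 24. The cyclins Ccnd2, Ccnd3, Ccne1 and Ccne2 and the genes Cdc45 and Mcm2 were not over 0.5 with or without that array. Kif11, Hmmr and Cdc20 had r of 0.67, 0.59 and 0.71 over 14 arrays. Without sedentary replicate 5 these were 0.13, 0.15 and 0.23, and Rrm1 and Cenpe were at 0.49 and 0.48.

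The members were then set against Cd79a, a subunit of the B-cell antigen receptor. Cd79a fell into separate ranges. Its signal was 335.2 on sedentary replicate 7, 459.4 on exercised replicate 5 and 778.9 on exercised replicate 7, and between 3591 and 19140 on the 11 others, with sedentary replicate 5 the highest. All 9 measured B lymphocyte markers had negative exercised minus sedentary differences, none past the threshold in the 14-array test and 0 at an unadjusted p under 0.05. Their summed signal was 4615 to 101100 in sedentary and 4198 to 52790 in exercised arrays. The part of these markers in the members' differences was not tested.

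With group in the fit, 15 of 35 members had a positive slope on Cd79a (limma, adjusted p under 0.05), where 9.68% of all genes did. The slope, a log2 change in the member for each log2 unit of Cd79a, was 0.52 for Birc5, 0.44 for Rrm2, 0.37 for Mcm5 (adjusted p = 0.000529), 0.35 for both Cdk1 and Tk1, and 0.34 for Mki67. Members with such a slope included 4 of 7 origin genes, 4 of 5 mitotic kinases and passenger proteins, 1 of 5 G1 cyclins and 1 of 7 spindle genes. These counts were 4, 1, 0 and 1 without sedentary replicate 5, and differences between roles were not tested. Pcna, with a slope of 0.10, did not pass (adjusted p = 0.0805).

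Without sedentary replicate 5, 11 of 35 members had a positive slope on Cd79a, where 7.89% of all genes did, so the relation was still called in members without that array. Without the 3 arrays low in Cd79a, a selection made after seeing the data, 0 of 35 members passed, where 0.433% of all genes did. The slopes themselves were larger in that fit of 11 arrays, with a median over the members of 0.34 against 0.17 with all arrays. They were positive in 33 of 35 members, and 20 were positive at an unadjusted p under 0.05. These 11 arrays still held sedentary replicate 5, the highest in Cd79a. Over them the median r of the 35 members with Cd79a was 0.63, and r was over 0.5 in 24. Over the 10 arrays left without sedentary replicate 5 the median r was 0.09. It was then over 0.5 in 2 members and positive in 22.

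The members were also set against Cd68, a lysosomal protein abundant in macrophages. Its signals were 3623, 4677 and 10675 (lowest, median, highest) in sedentary and 3177, 3658 and 3890 in exercised arrays. The sedentary arrays with the most Cd68 were replicate 5 and, at 8364, replicate 4, and the exercised arrays lay close together. Cd68 itself differed by -0.60 (SE 0.208, adjusted p = 0.107). Of the 12 macrophage markers past the filter, 11 had negative differences. The summed signal of 13 macrophage markers, with Trem2 from below the filter, was 124900 to 190800 in sedentary and 118000 to 161800 in exercised arrays. On sedentary replicate 5 the sum was 189700, below the highest of the other sedentary arrays, 190800. Adgre1, Lyz2, Itgax, Cd14 and Fcgr1 were highest on that array, as Cd68 was. Csf1r, Mrc1 and Gpnmb were there at or below their sedentary medians, so the macrophage markers did not all follow Cd68. The part of these markers in the members' differences was not tested.

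With group in the fit, 21 of 35 members had a positive slope on Cd68, where 5.18% of all genes did. Slopes on Cd68 reached 1.65 for Rrm2, 1.33 for Cdk1 and 1.31 for Mki67. Without sedentary replicate 5, 0 of 35 members passed, where 0.0464% of all genes did, and 2 had a positive slope at an unadjusted p under 0.05. The slope of Mki67 was then 0.54 (adjusted p = 0.762). With both marker genes in the fit, 10 members had a positive slope on Cd79a, where 7.75% of all genes did, and 12 had one on Cd68, where 3.72% did. Without the 3 arrays low in Cd79a, 22 of 35 members had a positive slope on Cd68, where 7.09% of all genes did.

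Of the other cell type markers, none passed the threshold with all 14 arrays. Median differences were -0.57 over 2 germinal centre genes, -0.59 over 7 T lymphocyte genes and -1.74 over 3 neutrophil genes, all of them negative. Medians were 0.18 over 6 adipocyte genes, -0.049 over 5 progenitor and fibroblast genes and -0.01 over 6 endothelial genes. They were 3.10 over 6 skeletal muscle genes, 0.81 over 4 epidermal genes and 0.44 for 1 erythroid gene. Summed signals of the T lymphocyte genes were 2023 to 23120 in sedentary and 1741 to 16410 in exercised arrays, and those of the neutrophil genes 2008 to 62460 and 1286 to 4861. With sedentary replicate 5 left out, the medians of the germinal centre, T lymphocyte and neutrophil genes were -0.48, -0.43 and -1.10. Those of the adipocyte, progenitor and endothelial genes were then 0.14, -0.072 and -0.093, and those of the muscle, epidermal and erythroid genes 2.93, 0.68 and 0.47. The adipocyte hormone gene Lep, named after its values were seen, differed by -1.41 with all arrays (adjusted p = 0.105) and was the marker that passed without sedentary replicate 5 (-1.85, adjusted p = 0.00319). That array had the lowest Lep signal of all, 1313, where the other sedentary arrays had 4997 to 18007 and the exercised arrays 2071 to 6102. Muscle genes summed to 2032 to 167500 and 2830 to 365400. The part of these cell types in the members' differences was not tested.

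Across arrays, 6 relations of Mki67, Top2a and Cdk1 with the marker genes were computed on log2 signals, with permutation p-values adjusted over the 6 by Benjamini-Hochberg. Unlike the slopes, these relations did not keep group in the fit, so differences between the groups enter r and its p-value. No r over all 14 arrays is given for Cd79a because of its separate ranges. Over the 11 arrays of its upper range, Pearson's r was 0.714 for Mki67 (permutation p = 0.0341, adjusted p = 0.0341) and 0.724 for Top2a (p = 0.029, adjusted p = 0.0341). For Cdk1 it was 0.731 (permutation p = 0.0134, adjusted p = 0.0201). Spearman's rho was 0.482, 0.482 and 0.564, with permutation p of 0.136, 0.137 and 0.0745 and adjusted p of 0.137, 0.137 and 0.112. Leaving out the 2 arrays farthest from the median of Cd79a, sedentary replicates 5 and 6, gave r of 0.092, 0.369 and 0.466 (exact permutation p = 0.817, 0.326 and 0.207). These relations weakened without those arrays, but 9 arrays over a narrower range of Cd79a cannot show whether a relation remains. Leaving out sedentary replicate 5 alone gave 0.315, 0.348 and 0.501 (permutation p = 0.374, 0.319 and 0.143). Within the 6 sedentary arrays of that range r was 0.703, 0.704 and 0.703 (exact permutation p = 0.114, 0.144 and 0.106), and the 5 exercised arrays were too few for a value.

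With Cd68, r over 14 arrays was 0.785 for Mki67 (permutation p = 0.0014, adjusted p = 0.00588), 0.805 for Top2a (p = 0.00196, adjusted p = 0.00588) and 0.689 for Cdk1 (p = 0.00726, adjusted p = 0.0145). Spearman's rho was 0.600, 0.596 and 0.503, with permutation p of 0.0262, 0.0276 and 0.0709 and adjusted p of 0.0828, 0.0828 and 0.112. Without the 2 arrays farthest from the median, sedentary replicates 4 and 5, r was 0.437, 0.328 and 0.291 (permutation p = 0.115, 0.295 and 0.359), so these relations weakened without those arrays. With only sedentary replicate 5 left out, r was 0.513, 0.527 and 0.447 (permutation p = 0.0209, 0.031 and 0.0955). Within the sedentary group r was 0.794, 0.841 and 0.822 (exact permutation p = 0.0528, 0.0127 and 0.0242). Within the exercised group it was 0.455, -0.179 and 0.33 (exact permutation p = 0.36, 0.692 and 0.458).

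**Figure D4:**
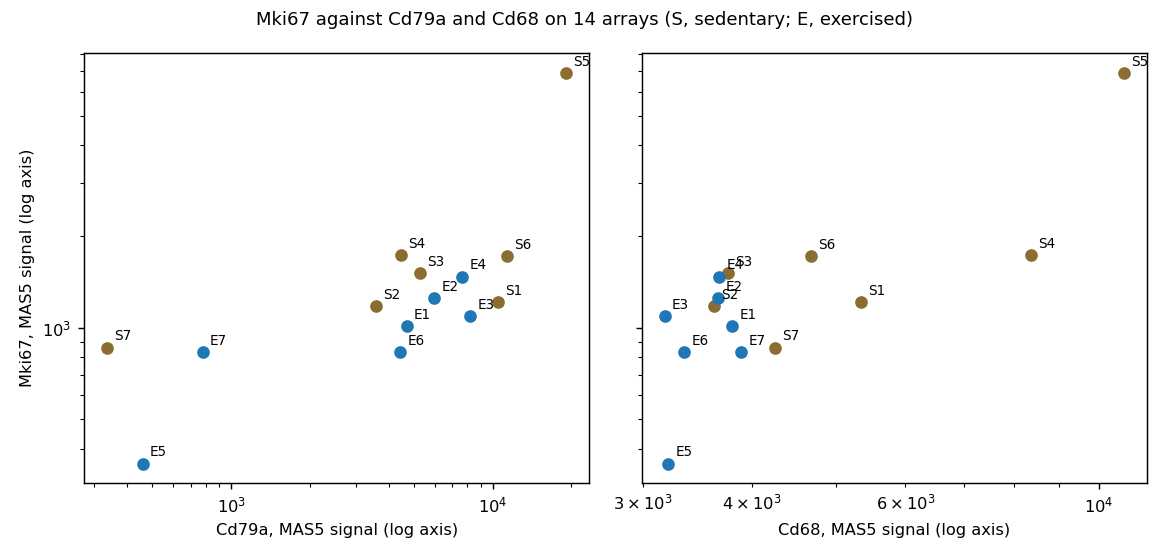
Signal of Mki67 against that of Cd79a (left) and Cd68 (right) on the 14 arrays, on log axes, with sedentary arrays S1 to S7 and exercised arrays E1 to E7. S7, E5 and E7 lie apart at low Cd79a, and S5 is highest in Mki67 and in both marker genes.

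Beyond the members, 4 lists of other cell cycle genes were followed, 118 genes past the filter. Of these, 4 fell and 0 rose, where 1.53% and 4% of all genes did, and 3 fell without sedentary replicate 5, where 1.71% of all genes did. The genes that fell were mostly brakes on the cycle. Of 18 measured brakes, 3 fell and 0 rose, with a median difference of -0.21 with or without that array. These were Cdkn1a, Cdkn2b and Btg2.

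Cdkn1a (p21), an inhibitor of cyclin-dependent kinases induced by p53, had signals of 3225, 4927 and 6825 in sedentary and 1863, 2394 and 3076 in exercised arrays. Every exercised array was below every sedentary array, as in 0.734% of all genes. Its log2 signal fell by 1.01 (SE 0.149, adjusted p = 0.00228), and by 0.93 without sedentary replicate 5 (adjusted p = 0.00216). It passed under each of 30 alternative settings, with adjusted p between 0.000707 and 0.0219.

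Cdkn2b (p15), an inhibitor of Cdk4 and Cdk6, had signals of 1111, 1616 and 2674 in sedentary and 858, 1083 and 1334 in exercised arrays. Sedentary replicate 5 was the lowest sedentary array in Cdkn2b, unlike in the members, and lay in the exercised range. The difference of Cdkn2b was -0.64 (SE 0.171, adjusted p = 0.0397), and -0.74 without sedentary replicate 5 (adjusted p = 0.0134). Btg2, an antiproliferative p53 target, had signals of 4419, 5590 and 5812 in sedentary and 2713, 3963 and 4578 in exercised arrays. The groups touched only at their edges, and the difference was -0.44 (SE 0.116, adjusted p = 0.0399), which no longer passed without sedentary replicate 5 (-0.42, adjusted p = 0.0588).

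Of 40 other replication genes, 1 fell and 0 rose, with 13 lower at an unadjusted p under 0.05, where 10.5% of all genes were, and a median of -0.26. Those values were 10, against 10.2%, and -0.17 without sedentary replicate 5. The gene that fell was Rfc5, a subunit of the clamp loader that places Pcna on DNA. Rfc5 had signals of 1057, 1151 and 2229 in sedentary and 642.5, 884 and 997.6 in exercised arrays, with every exercised array below every sedentary one. The difference of Rfc5 was -0.57 (SE 0.155, adjusted p = 0.0426), and -0.44 without sedentary replicate 5 (adjusted p = 0.0266). Adjusted p lay between 0.0511 and 0.0846 for Cdkn2b, between 0.0558 and 0.0859 for Btg2 and between 0.0526 and 0.0899 for Rfc5 where leaving out 1 array ended the call, as it did for 9 of the 14 arrays with each gene.

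Of 22 G1 kinases and transcription factors, 0 passed the threshold in either direction, and at an unadjusted p under 0.05 there were 3 higher and 1 lower, against 11.3% and 10.5% of all genes, with a median of -0.012, which was 0.052 without sedentary replicate 5. Those with the smallest p were E2f4, a partner of the retinoblastoma-like repressors (0.32, SE 0.119, adjusted p = 0.130), and the repressor E2f6 (0.46, SE 0.182, adjusted p = 0.158). E2f6 had signals of 1217 to 2005 in sedentary arrays. It was 2055 to 3881 on exercised replicates 2, 3, 6 and 7, which were high in Acta1, and 1661 to 1933 on the other exercised arrays. Sedentary replicate 3, also high in Acta1, had 1928. The part of muscle in this difference was not tested. Of 38 other mitosis genes, 0 passed, with a median of -0.30. At an unadjusted p under 0.05, 6 were lower and 0 higher, against 10.5% and 11.3% of all genes. Sedentary replicate 5 bore on these values, which were -0.14, 2 lower and 0 higher without it, where 10.2% of all genes lay on each side. Among the mitosis genes the smallest p with all arrays belonged to the kinetochore subunit Spc24 (-0.78, SE 0.290, adjusted p = 0.132) and the separase Espl1 (-0.37, SE 0.155, adjusted p = 0.174). They differed by -0.51 and -0.27 without sedentary replicate 5. Sedentary replicate 5 was the highest of the 14 arrays in 31 of the 38 mitosis genes and 29 of the 40 replication genes. It was also highest in 13 of the 22 G1 kinases and transcription factors and in 4 of the 18 brakes. Over all genes this share was 23.1%.

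**Figure D5:**
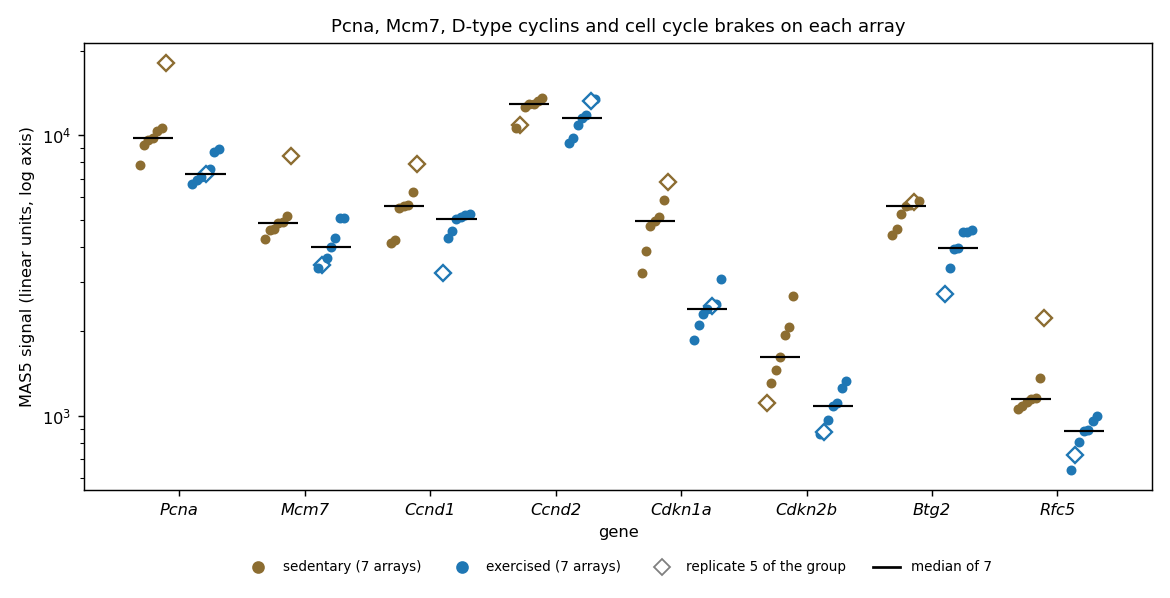
Signal of Pcna, Mcm7, Ccnd1, Ccnd2, Cdkn1a, Cdkn2b, Btg2 and Rfc5 on each of the 7 sedentary and 7 exercised arrays, with lines at the group medians and replicate 5 of each group as diamonds. The groups are apart in Cdkn1a and Rfc5 and overlap in the rest.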

How the data were processed

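Total RNA from frozen scWAT was labelled as biotinylated cRNA and hybridised to Affymetrix arrays, per the labels' protocols. The values deposited by the authors are intensity on a linear scale for 45101 probe sets on 14 arrays, and the submitters' processing notes name MAS5. Its version is not given in the sources used here. The mean of each array with 2% trimmed at both ends was 1500, so a difference in total RNA per cell between arrays would not show.

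Groups were taken from the group label of each sample. Probe sets with 1 symbol in the platform annotation numbered 34945, of which 34741 matched RefSeq; 932 had several symbols, 9160 had none and 64 were controls. One probe set per gene, by highest mean, was kept where the mean exceeded 389.8 (the 40th percentile). Signals became log2(signal + 46.7), a scale that understates changes of weak genes, and were fitted with limma 3.58.1 in R 4.3.3 (lmFit, then eBayes with a variance trend, two-sided). P-values were adjusted over all genes by Benjamini-Hochberg with a threshold of 0.05. Slopes on Cd79a and Cd68 came from the same fit with group kept in it. Correlations used 100000 resamples, or exact permutation with fewer than 10 arrays. The pseudocount, filter, scaling, probe set choice, variance model, covariates and arrays were varied.

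On simulated data over 12944 genes, the comparison of exercised with sedentary recovered 42% of changes of -0.5 and 86% of changes of -1, with 4.9% of calls false. The slope on Cd79a recovered 60% of slopes of 0.2 and 93% of slopes of 0.4, with 4.4% of calls false. The simulated noise was independent from gene to gene, and the changed genes were drawn at random. The members varied together and shared extreme arrays, so these rates do not carry over to them.

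The members, the lists of brakes, G1 kinases and transcription factors, other replication and other mitosis genes, and the cell type markers were chosen with earlier results of these data known. Values per array are given for Mki67, Top2a and Cdk1, for members past the threshold, and for the 2 members of each role with the smallest p. Each list of other cell cycle genes is represented by at most 3 genes past the threshold or, failing any, by 2 chosen on smallest p. Pcna was also named by its role. Rrm2 and members below the filter were given their ranges besides. No 2 arrays held identical values. The promoter of Mki67 was added to those printed after its values were seen. The number of arrays limits the precision.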

Additional observations from a re-analysis of the deposited data

Results flagged for a closer look

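In groups of 7 arrays, the gap of the highest or lowest array to its neighbour, as a share of the group's whole range on the log2 scale, was compared with Dixon's 95% critical value for that number of arrays. Of 90 groups tested (genes by exercised or sedentary), 23 exceeded it. For independent groups chance gives about 1 in 20. These groups share the same arrays, and sedentary replicate 5 had been set apart before this test. The count therefore cannot be read against that rate.

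In 15 of the 23, sedentary replicate 5 stood above the other sedentary arrays. The share was 0.829 for Ube2c, 0.732 for Mcm7, 0.695 for Top2a, 0.669 for Mki67, 0.666 for Rfc5 and 0.636 for Pcna. It was 0.617 for Ccnb2, 0.607 for Prc1, 0.605 for Spc24, 0.598 for Aurkb and 0.591 for Mcm5. It was 0.588 for Kif11, 0.579 for Stmn1, 0.576 for Nusap1 and 0.575 for Cdca8. The same array had the highest B lymphocyte and neutrophil sums and the lowest adipocyte sum, and their part in these values was not tested.

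Exercised replicate 5 stood below the other exercised arrays in 6 members. The share was 0.731 for Birc5, 0.683 for Ccnb2, 0.624 for Rrm2, 0.620 for Mcm6, 0.584 for Mki67 and 0.580 for Ccnd1. That array had a Cd79a signal of 459.4, the lowest of the exercised arrays, and the part of this in those values was not tested. Cdc45 was lowest on sedentary replicate 1, with a share of 0.596. Cd79a was lowest on sedentary replicate 7, with a share of 0.575.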

How the results depend on the processing

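Of 30 alternative settings, 26 also gave 0 members lower, and all 30 gave 0 higher; 1 member, Pcna, was lower with array weights (adjusted p = 0.0217) and when sedentary replicates 5 and 7 and exercised replicates 5 and 7 were left out (1 member, adjusted p = 0.0455). Leaving out each array in turn gave 0 to 1 members lower and a median member difference of -0.43 to -0.17; over every setting the median ran from -0.43 to 0.084, the last with Cd68 as a covariate. The count of all genes lower was 86 with arrays centred on the median, 398 with array weights, 322 with Cd79a and 93 with the Gapdh ratio as a covariate, 57 without sedentary 7, exercised 5 and exercised 7, and 79 to 262 leaving out 1 array. The count of all genes higher was 125 with Cd68, 224 with both marker genes and 306 with the Gapdh ratio as covariates, 160 without those 3 arrays, 317 without those and sedentary 5, and 309 to 591 leaving out 1 array. Slopes passed in 0 members for Cd79a without those 3 arrays, and for Cd68 in 0 without sedentary replicate 5 and 12 with both marker genes. The 2 selections that leave out several arrays were chosen after seeing the data.

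Signs turned in 6 named members. With Cd68 as a covariate the difference was 0.012 for Top2a, 0.23 for Cdk1, 0.039 for Ccnd1, 0.31 for Ube2c and 0.062 for Stmn1. With both marker genes it was 0.17 for Cdk1, 0.022 for Ccnd1, 0.28 for Ube2c and 0.048 for Stmn1. Ube2c was 0.032 without those 4 arrays, and Cdc20 was -0.28 with the mean of its probe sets. Except where a sign came from other probe sets or fewer arrays, the cause was not tested.

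Deviations of same-numbered arrays correlated at -0.425 to 0.381, over 0.1 in 3 of 7 pairs, and 1 of 7 sedentary arrays correlated best with its own number. Such similarity cannot show whether same-numbered arrays were paired in the experiment. With the replicate number as a block, 25 genes were lower and 136 higher over all genes, against 198 and 518 without it, and 0 members passed. The difference of Pcna stayed at -0.46 (adjusted p = 0.127), and that of Cdkn1a passed (adjusted p = 0.0212). Cdkn2b, Btg2 and Rfc5 did not pass with the block (adjusted p = 0.0899, 0.127 and 0.121). Of the 30 settings Cdkn1a passed in 30, Cdkn2b in 16, and Btg2 and Rfc5 in 13 each.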
